A study of Mus musculus with 3 samples.

Results

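Integrin receptors and the proteins that tie them to the actin cytoskeleton were followed in sorted tendon-lineage cells of the embryonic mouse hindlimb. The 35 genes were chosen by name: 25 integrin chains and 10 adaptor proteins of focal adhesions, out of 22072 gene symbols in the tables. RNA sequencing was carried out on ScxGFP positive cells, in which a green fluorescent reporter follows Scx, the gene that encodes scleraxis and marks the progenitors of tendons and ligaments. The cells came from hindlimbs of mouse embryos of mixed strain background, with 18 hindlimbs pooled for E11.5, 12 for E13.5 and 11 for E15.5. Each pool was sorted on a BD FACSAria II and gave 1 library, so embryos were not measured apart and differences between stages lack a replicate check. RNA was converted to amplified cDNA (NuGEN Ovation RNA-Seq v2), a method for small samples. No p-value is given, each difference is one between 2 libraries, and each interval is an approximate 95% interval that covers counting error only.

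Integrins are pairs of an alpha and a beta chain that span the cell membrane, bind extracellular matrix or other cells outside, and join the actin cytoskeleton inside. The alpha chain largely sets the ligand. Alpha1, alpha2, alpha10 and alpha11 pair with beta1 and bind collagens. Alpha3, alpha6 and alpha7 bind laminins of basement membranes, alpha5, alpha8 and the alphav chain bind the Arg-Gly-Asp (RGD) motif of fibronectin and related proteins, and beta2 and beta7 serve mainly leukocytes. Talins and kindlins bind the beta chain's tail and switch the receptor on. Vinculin, the complex of ILK, PINCH and parvin, focal adhesion kinase, paxillin and zyxin build the focal adhesion on that base. In tendon, these receptors connect cells to a matrix of fibrillar collagen that carries the pull of muscle.

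The sort and the depth bear on every value below. Scx was at 375, 410 and 213 FPKM in stage order, where FPKM is mapped fragments corrected for transcript length and library size. Tnmd, a marker of differentiated tendon cells, was listed at 0 at E11.5 and at 7.57 and 56.8 FPKM later. The 6 tendon markers summed to 394, 684 and 1787 FPKM, mostly Scx at E11.5 and mostly Col1a1 (1322 FPKM) at E15.5. Genes of other cell types were also present and their sums moved with stage. Skeletal muscle markers (9 genes) summed to 12.7, 66.7 and 233 FPKM, cartilage markers (5 genes) to 140, 212 and 305, smooth muscle and pericyte markers (6 genes) to 4.08, 20.6 and 34.6, red cell markers (6 genes) to 5.98, 15.7 and 85.4, and epithelial markers (7 genes) to 4.06, 7.04 and 9.73. Endothelial markers (5 genes) summed to 0.818, 2.67 and 8.75 FPKM, leukocyte markers (7 genes) to 2.33, 1.27 and 2.11, megakaryocyte markers (5 genes) to 0.657, 0.815 and 0.629, and Schwann cell and neuron markers (5 genes) to 2.81, 2.25 and 1.97. Single genes weighed heavily in other sums too: at E15.5 Actc1 was at 164 FPKM among muscle markers and Beta-s at 67.4 among red cell markers. A sum thus need not show how each of its markers moved. The part of these other cell types in the results was not tested. In RNA from a cell mixture, fewer cells of a type and less RNA per cell cannot be told apart. Estimated from the deposited coverage, the libraries held about 14400000, 12800000 and 17900000 reads on listed transcripts, so that a transcript of 2000 bases at 1 FPKM had a counting error of 11.3%, 12.5% and 11.4%.

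Integrin and adaptor transcripts were mostly higher at the later stages, and over the whole span the largest log2 differences among those compared were in the collagen receptor chain Itga11, the fibronectin receptor chain Itga5 and their common partner Itgb1. In all, 20 members had a mean of at least 1 FPKM and were compared, and each of these 20 had at least 1 FPKM in every library. The other 15, all integrin chains, were below that mean. From E11.5 to E13.5, 2 of the 20 members were at least 2-fold higher on the log2(FPKM + 1) scale, Itga11 and Itgb1, against 6.00% of the 10938 genes compared. None was 2-fold lower, against 1.02% of genes. From E13.5 to E15.5, 1 of 20 was 2-fold higher, Itga6, against 3.58% of 10934 genes, and none was 2-fold lower, against 0.713%. Between E11.5 and E15.5, 6 of 20 were 2-fold higher, namely Itga4, Itga5, Itga6, Itga11, Itgb1 and Zyx, against 12.6% of 10939 genes, and none was 2-fold lower, against 2.14%. The first 2 counts, in so few members, lie near the background. The median log2 difference of the 20 members was 0.54, 0.38 and 0.82 in the order of these comparisons, beside 0.07, 0.04 and 0.07 over all genes compared. Members with a difference above 0 numbered 18 of 20, 15 of 20 and 18 of 20, where all genes gave 57.4%, 55.1% and 55.6%. The 3 comparisons share libraries and are not independent of each other.

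The choice of scale matters most for the later interval. When each library was rescaled to the mean of the 3 FPKM sums, the median over all genes between E13.5 and E15.5 moved from 0.04 to -0.13 and that of the members from 0.38 to 0.19, and no member then reached 2-fold in that interval. Over the whole span, Itga5, Itga11 and Itgb1 were the members still at least 2-fold higher on that scale.

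Upstream sequence is shown for 5 of the 6 members that were 2-fold higher between E11.5 and E15.5. Of the 20 members compared, those 6 differed most over that span on the log2(FPKM + 1) scale, and a reader may want the letters beside the values. For the other member, Itga6, the table of RefSeq promoters used here held no entry. The windows are the 250 bases before the start, from RefSeq with the GRCm38.p6 build, and differ in build from the mm9 coordinates of the expression tables. Each is written 5′ to 3′ on the gene's strand, and capitals mark E-boxes (CANNTG) and GC boxes (GGGCGG), searched on both strands. Scleraxis belongs to the bHLH family, whose members bind E-boxes.
Itga11, chr9:62677605-62677854, plus strand: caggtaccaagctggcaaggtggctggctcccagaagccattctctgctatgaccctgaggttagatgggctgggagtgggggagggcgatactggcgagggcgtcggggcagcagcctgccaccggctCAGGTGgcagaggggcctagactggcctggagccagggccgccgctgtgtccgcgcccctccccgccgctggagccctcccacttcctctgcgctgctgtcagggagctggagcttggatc
Itga5, chr15:103366792-103367041, minus strand: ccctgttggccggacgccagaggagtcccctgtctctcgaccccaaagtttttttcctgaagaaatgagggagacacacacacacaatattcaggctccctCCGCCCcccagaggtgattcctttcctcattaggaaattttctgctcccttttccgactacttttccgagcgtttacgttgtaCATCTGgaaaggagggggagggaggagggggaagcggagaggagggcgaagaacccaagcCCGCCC
Itgb1, chr8:128685404-128685653, plus strand: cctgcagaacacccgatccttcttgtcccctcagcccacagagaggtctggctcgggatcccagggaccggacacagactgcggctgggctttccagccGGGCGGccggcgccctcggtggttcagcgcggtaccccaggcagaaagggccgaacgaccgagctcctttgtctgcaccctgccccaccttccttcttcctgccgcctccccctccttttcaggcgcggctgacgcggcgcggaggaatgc
Zyx, chr6:42349578-42349827, plus strand: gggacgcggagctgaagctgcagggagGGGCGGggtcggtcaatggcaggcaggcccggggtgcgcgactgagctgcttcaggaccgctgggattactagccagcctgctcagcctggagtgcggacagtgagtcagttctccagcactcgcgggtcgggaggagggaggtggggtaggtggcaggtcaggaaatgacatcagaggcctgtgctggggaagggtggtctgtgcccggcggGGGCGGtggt
Itga4, chr2:79255176-79255425, plus strand: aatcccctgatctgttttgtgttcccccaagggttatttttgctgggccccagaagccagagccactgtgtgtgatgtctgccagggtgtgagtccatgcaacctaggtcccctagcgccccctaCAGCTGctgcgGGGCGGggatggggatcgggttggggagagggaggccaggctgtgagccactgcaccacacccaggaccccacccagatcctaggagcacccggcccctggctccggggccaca
The Itga11 window holds 1 E-box, CAGGTG, 121 to 116 bases before the start, and no GC box. Itga5 holds 1 E-box, CATCTG, at 66 to 61 bases, and 2 GC boxes. In Itga4 an E-box, CAGCTG, lies at 125 to 120 bases beside a GC box at 114 to 109. Itgb1 and Zyx have no E-box in this window, Itgb1 has 1 GC box at 151 to 146 bases and Zyx has 2. Windows were found for 24 of the 35 members, 29 in all. An E-box was in 20 of 29 member windows and in 66.2% of all 32851 promoter windows of that length, and a GC box in 12 of 29 and 32.7%. The AP-1 motif TGANTCA was in 2 of 29 and 6.75%, the TEAD motif GGAATG in 3 of 29 and 12.6%, the Smad motif CAGAC in 12 of 29 and 42.2%, and the CArG box of serum response factor in 3 of 29 (Vcl, Fermt2 and Itgb6) and 1.47%. Median GC content was 58.4% in member windows and 52.4% in all. These are matches of letters, not binding sites.

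Among the collagen receptors 1 chain made up most of the transcript level, alpha11, the fibrillar collagen receptor of mesenchymal cells and fibroblasts. Itga11 (mm9 chromosome 9, 62525662 to 62631786) was at 1.74, 7.41 and 13.3 FPKM in stage order. The first library was thus far below the others, with a ratio of 4.25 (interval 3.77 to 4.82) from E11.5 to E13.5 and of 1.80 (1.68 to 1.93) in the next interval. Over the whole span the ratio was 7.65 (6.82 to 8.59), and on the log2(FPKM + 1) scale the difference was 2.38, above that of each other member compared. Itga11 held 67.4%, 85.9% and 81.2% of the summed FPKM of the 4 collagen-binding chains. Its FPKM equalled 7.97%, 16.4% and 21.5% of that of its partner Itgb1.

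The 3 other collagen-binding chains were below a mean of 1 FPKM. Itga1, whose receptor binds several collagens including those of basement membranes, was listed at 0.224, 0.581 and 1.38 FPKM, with a ratio of 6.15 (4.59 to 8.39) over the span. Itga1 overlaps the gene Pelo (4.02, 3.66 and 4.30 FPKM), and since no strand setting is known, their reads cannot be told apart where they overlap. Itga10, a chain known from chondrocytes, was at 0.561, 0.516 and 1.396 FPKM, so that E11.5 and E13.5 did not differ beyond counting error (ratio 0.919, 0.684 to 1.23) and E15.5 was above both. The cartilage sum given above was higher at each later stage, but its 5 markers did not move alike. Sox9 was at 56.2, 41.0 and 22.5 FPKM, while the other 4 were higher at each later stage. The part of cartilage cells in the Itga10 values was not tested. Itga2 was lowest of the 4 in every library, at 0.0585, 0.119 and 0.308 FPKM.

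Itgb1 encodes beta1, the partner of all collagen-binding chains and of most others measured here. Itgb1 (mm9 chromosome 8, 131209554 to 131257479) was at 21.9, 45.1 and 61.9 FPKM, the highest level of the 25 integrin chains in every library. By level it ranked 1132, 457 and 381 among the 22072 genes. The ratio was 2.06 (1.98 to 2.15) in the first interval and 1.37 (1.33 to 1.42) in the second, with log2 differences of 1.01 and 0.45. Its call at 2-fold in the first interval is a narrow one, since with median-of-ratios size factors the log2 difference was 0.97. Beta1 accounted for 74.4%, 80.2% and 81.3% of the summed FPKM of the 8 beta chains. The 11 alpha chains that pair with beta1 only or mainly summed to 16.7, 36.0 and 56.2 FPKM, and Itgb1 stood at 1.31, 1.25 and 1.10 times that sum. Itgb1 was thus above the sum of these 11 in each library, and the ratio of the levels was smaller at E15.5 than at E11.5. That sum leaves out Itgav (5.46, 5.75 and 8.98 FPKM), whose product pairs with beta1 among other beta chains. Whether Itgb1 lies above all its partners together depends on that choice.

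**Figure D1:**
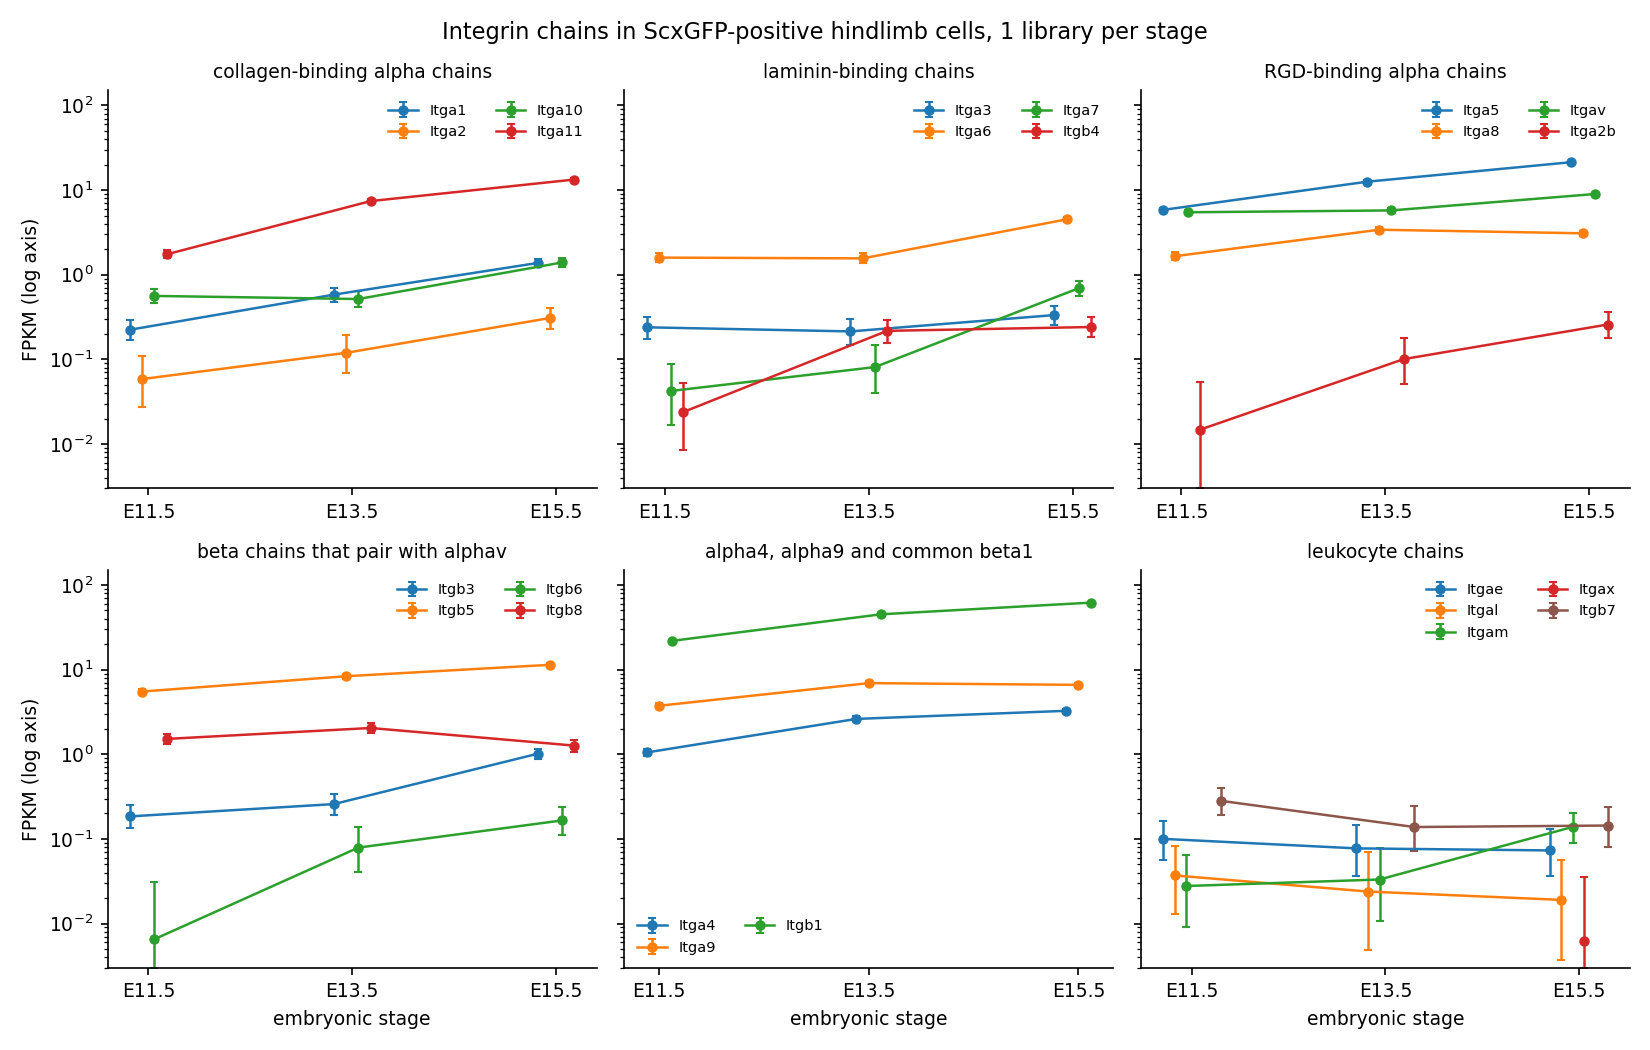
FPKM (log axis) of integrin chains against embryonic stage, in panels by ligand class, with 1 library per stage, points offset sideways for legibility, lines joining the points of a gene and bars showing approximate 95% counting intervals that stop at the lower edge of the axis. Values listed at 0 (Itgb2 in all libraries, Itgax at E11.5 and E13.5) are not drawn. Itga11 and Itga5 lie above the other collagen-binding and RGD-binding alpha chains at E15.5, at 13.3 and 21.3 FPKM, and the leukocyte chains stay below 0.3 FPKM.

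The RGD-binding alpha chains held the largest share of alpha-chain transcript, and they differed among themselves in when they were high. Itga5 (mm9 chromosome 15, 103174718 to 103197179), the alpha chain of the main fibronectin receptor, was at 5.83, 12.5 and 21.3 FPKM. Each library was above the one before, with ratios of 2.15 (1.99 to 2.33) and 1.70 (1.61 to 1.80). Its log2 difference in the first interval, 0.99, was just under the 2-fold limit. Itgav, whose product pairs with several beta chains and binds vitronectin, fibronectin and latent TGF-beta, was at 5.46, 5.75 and 8.98 FPKM. E11.5 and E13.5 did not differ beyond counting error in Itgav (ratio 1.05, 0.976 to 1.13), and E15.5 was higher (1.56, 1.46 to 1.67). At E11.5 the levels of Itga5 and Itgav were close together, and at E15.5 Itga5 was the higher, so that Itga5 went from 45.0% of the class to 57.6% and 63.4%. Itga8, the nephronectin receptor chain, was at 1.66, 3.40 and 3.08 FPKM. Its E13.5 and E15.5 values did not differ beyond counting error (ratio 0.907, 0.813 to 1.01), while both lay above E11.5. Itga2b, the platelet fibrinogen receptor chain, was at 0.0147, 0.101 and 0.258 FPKM, below a mean of 1. Of the 5 megakaryocyte markers, Gp9 was listed at 0 in all 3 libraries and Ppbp was at 0, 0.0378 and 0.107 FPKM, while Gp1bb, the highest, was at 0.626, 0.637 and 0.477. Their part in the Itga2b values was not tested.

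The beta chains that join alphav took different courses. Itgb5, a vitronectin receptor chain, was at 5.51, 8.36 and 11.4 FPKM, with a ratio of 2.07 (1.89 to 2.27) over the span and a 1.90-fold difference on the scale of FPKM + 1. Itgb8, whose product presents latent TGF-beta for activation, was at 1.52, 2.04 and 1.27 FPKM. It was highest at E13.5, and the ratio of E15.5 to E13.5 was 0.619 (0.498 to 0.768), the lowest of the 20 members compared in that interval. Itgb3, the chain of osteoclasts, platelets and vessels, was at 0.185, 0.258 and 1.02 FPKM, of which E15.5 stood above the others (ratio to E13.5 3.94, 2.87 to 5.49). Itgb6, an epithelial chain, was at 0.00655, 0.0790 and 0.166 FPKM, levels that rest on very few estimated reads.

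The chains alpha4 and alpha9 bind VCAM1 and, respectively, fibronectin and tenascin-C. Itga4 was at 1.05, 2.62 and 3.26 FPKM, a ratio of 2.49 (2.21 to 2.81) in the first interval and 1.25 (1.14 to 1.36) in the second. Itga9 was at 3.74, 6.93 and 6.61 FPKM. In Itga9 E13.5 and E15.5 did not differ beyond counting error (ratio 0.953, 0.886 to 1.03) and both were above E11.5. The transcript NM_001113514 of Itga9 took 29.8%, 46.8% and 45.5% of the gene's estimate.

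Laminin-binding chains were low apart from Itga6. Itga6, which pairs with beta1 or beta4 in epithelia, endothelium and other cells on basement membranes, was at 1.59, 1.56 and 4.504 FPKM. The first 2 libraries did not differ beyond counting error (ratio 0.980, 0.813 to 1.18), and E15.5 was above both, with a ratio of 2.89 (2.47 to 3.38) to E13.5 and a log2 difference of 1.10. Itga7, the laminin receptor chain of skeletal muscle and of some other cells, was at 0.0423, 0.0810 and 0.692 FPKM. Its ratio of E15.5 to E13.5 was 8.54 (4.47 to 18.3), from levels below a mean of 1 FPKM. Beside it, 9 of the 9 skeletal muscle markers were higher at E15.5 than at E13.5, where all genes compared gave 55.1%. These markers ranged from 0.590 to 39.3 FPKM at E13.5 and from 1.28 to 164 at E15.5. Itga3, an epithelial laminin receptor chain, was at 0.239, 0.214 and 0.334 FPKM. Itgb4, the chain of hemidesmosomes, was at 0.0238, 0.217 and 0.241 FPKM. Its locus span shares 55 bases with that of Galk1 (11.2, 15.04 and 19.6 FPKM), a gene that was far higher. All 5 endothelial markers were higher at E15.5 than at E13.5, with none listed at 0, and 4 of the 7 epithelial markers were. The epithelial count lies near the 55.1% of all genes compared, but the markers split. Krt5, Krt14, Trp63 and Cdh1 were higher at E15.5, while Krt8, Krt18 and Epcam were lower. From E13.5 to E15.5, Krt5 went from 0.352 to 3.60 FPKM and Krt18 from 2.71 to 1.36. The part of these cell types in the values of Itga6, Itga3 and Itgb4, and of muscle cells in those of Itga7, was not tested.

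The leukocyte chains were at or near 0. Itgb2, the beta chain that leukocyte integrins share, was listed at 0 in all 3 libraries. Itgax, a chain of dendritic cells and macrophages, was listed at 0, 0 and 0.00623 FPKM, and Itgal, the chain of the lymphocyte receptor for ICAM1, at 0.0370, 0.0239 and 0.0190. Itgam, a chain of myeloid cells, was at 0.0278, 0.0332 and 0.139 FPKM, the last above the others. Itgb7 was at 0.282, 0.138 and 0.144 FPKM, and Itgae, which joins beta7 to bind E-cadherin, at 0.1002, 0.0773 and 0.0731. The locus span of Itgae, introns included, overlaps that of Gsg2 (3.76, 2.94 and 2.41 FPKM), and whether they share reads was not tested. Of the 7 leukocyte markers, Ptprc was listed at 0 at E11.5 and at 0.00660 and 0.0277 FPKM later. The highest, Cd68, was at 1.65, 0.652 and 0.909 FPKM and Laptm5 at 0.661, 0.560 and 0.340. Lyz2 (0.00598, 0.0489 and 0.533 FPKM) and Csf1r (0.0120, 0.00776 and 0.148) were highest at E15.5. So were Fcgr3 (0, 0 and 0.0815 FPKM) and Cd52 (0, 0 and 0.0702). Their part in these values was not tested. None of 7 housekeeping genes was listed at 0 in any library.

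Because FPKM is scaled to transcript length, alpha chains can be set side by side within a library. The 17 alpha chains summed to 22.4, 41.9 and 65.7 FPKM and the 8 beta chains to 29.4, 56.2 and 76.1. The collagen-binding class held 11.55% (10.6 to 12.5) of the alpha sum in the first library, 20.6% (19.6 to 21.5) in the next and 24.96% (24.2 to 25.7) in the last, and these intervals do not overlap. RGD-binding chains held 57.9% (56.5 to 59.3), 51.9% (50.8 to 53.1) and 51.2% (50.4 to 52.1), of which the last 2 overlap. Alpha4 and alpha9 together held 21.4%, 22.8% and 15.03%, and laminin-binding chains 8.37%, 4.42% and 8.42%. The leukocyte chains held 0.737%, 0.320% and 0.361%. By gene, Itga11 went from 7.78% to 17.7% and 20.3% of the alpha sum, Itga5 from 26.0% to 29.9% and 32.5%, and Itgav from 24.4% to 13.7% and 13.7%. In Itgav the share was thus lower at E15.5 while the FPKM was higher.

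**Figure D2:**
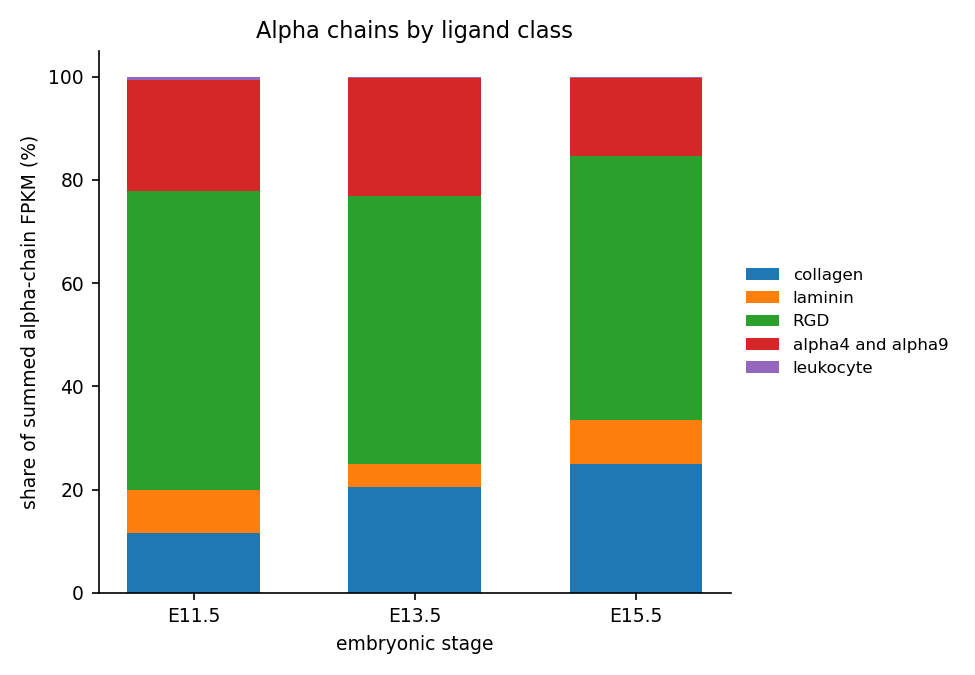
Share (%) of the summed FPKM of 17 alpha chains held by each ligand class, stacked to 100, by embryonic stage, with 1 library per bar. The collagen-binding class takes 11.55%, 20.6% and 24.96%, and the RGD-binding class is the largest in each bar.

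All 10 adaptor proteins were above 1 FPKM in every library. At E15.5, 9 of 10 were higher than at E11.5, where all genes compared gave 55.6%. Together they summed to 119, 163 and 216 FPKM. Their median log2 difference was 0.43, 0.33 and 0.68 over the comparisons of E13.5 with E11.5, E15.5 with E13.5 and E15.5 with E11.5, beside 0.73, 0.43 and 0.99 in the 10 integrin chains compared. Only Zyx among the 10 was at least 2-fold higher over the whole span, a count near the background of 12.6% of all genes compared. Ilk (1.99-fold on the scale of FPKM + 1), Tln1 (1.97-fold) and Parva (1.97-fold) were just below the limit.

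The proteins that bind the receptor tail came first in the order of the complex. Tln1, the widespread talin that links beta tails to actin, was at 6.19, 9.61 and 13.2 FPKM, each library above the one before (ratios 1.55, 1.47 to 1.65, and 1.37, 1.31 to 1.44). Tln2, the second talin, was the lowest adaptor in every library at 2.66, 3.82 and 4.95 FPKM. Fermt2, kindlin-2, which works with talin to activate integrins, was at 13.45, 16.2 and 19.8 FPKM. Vinculin, which reinforces the link from talin to actin, is encoded by Vcl, which was at 10.1, 16.6 and 15.8 FPKM. Vcl was thus higher at both later stages than at E11.5, with a ratio of 0.948 (0.900 to 0.997) between E13.5 and E15.5.

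The complex of ILK, PINCH-1 and alpha-parvin binds beta tails and actin as 1 unit, and its members, each summed over transcripts, differed in timing. Ilk was at 23.5, 25.3 and 47.9 FPKM, nearly level over the first interval (ratio 1.08, 1.003 to 1.16) and higher in the second (1.89, 1.78 to 2.01). Parva was at 10.9, 17.4 and 22.5 FPKM, with the larger ratio in the first interval (1.59 against 1.29). Lims1, which encodes PINCH-1, was at 7.92, 11.3 and 12.1 FPKM. Its log2 difference of 0.09 between E13.5 and E15.5 lay between -0.10 and 0.18 over the other settings tried, so its direction there depends on the setting. Within Ilk the estimate moved between transcripts: NM_010562 was at 9.33, 18.9 and 39.3 FPKM, and NM_001161724 at 14.2, 6.46 and 8.62. The second transcript thus made up 60.3%, 25.5% and 18.0% of Ilk. These transcripts differ in length by few bases (1752 and 1797) and reads were divided between them by estimate, and the Ilk locus overlaps Rrp8 by 796 bases (3.34, 3.53 and 3.99 FPKM) and Taf10 by 32 bases (23.5, 15.9 and 15.3 FPKM).

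Signalling adaptors and the tension-linked protein zyxin made up the last group. Ptk2, focal adhesion kinase, was at 11.2, 10.7 and 10.6 FPKM, level over the stages within counting error (ratio over the span 0.946, 0.886 to 1.01). Its log2 difference over the span, -0.07, lay between -0.24 and -0.08 over the other settings tried. Ptk2 was the only adaptor without a higher value at E15.5 than at E11.5. Pxn, paxillin, a docking protein for focal adhesion kinase, was at 9.01, 10.7 and 14.8 FPKM. Within Pxn the transcript NM_133915 held 14.8%, 21.7% and 35.7% of the estimate, at 1.33, 2.33 and 5.27 FPKM. Zyx (mm9 chromosome 6, 42299827 to 42308394), zyxin, which gathers at adhesions and stress fibres under pull, was the highest adaptor in every library at 24.1, 40.9 and 54.7 FPKM. At E11.5 its counting interval (23.1 to 25.1) overlapped that of Ilk (22.4 to 24.7). The log2 differences of Zyx were 0.74 and 0.41, and its ratio over the span was 2.27 (2.16 to 2.38). Against E11.5, the level of Ptk2 at E15.5 was 0.95-fold on the scale of FPKM + 1 while that of Zyx was 2.22-fold.

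**Figure D3:**
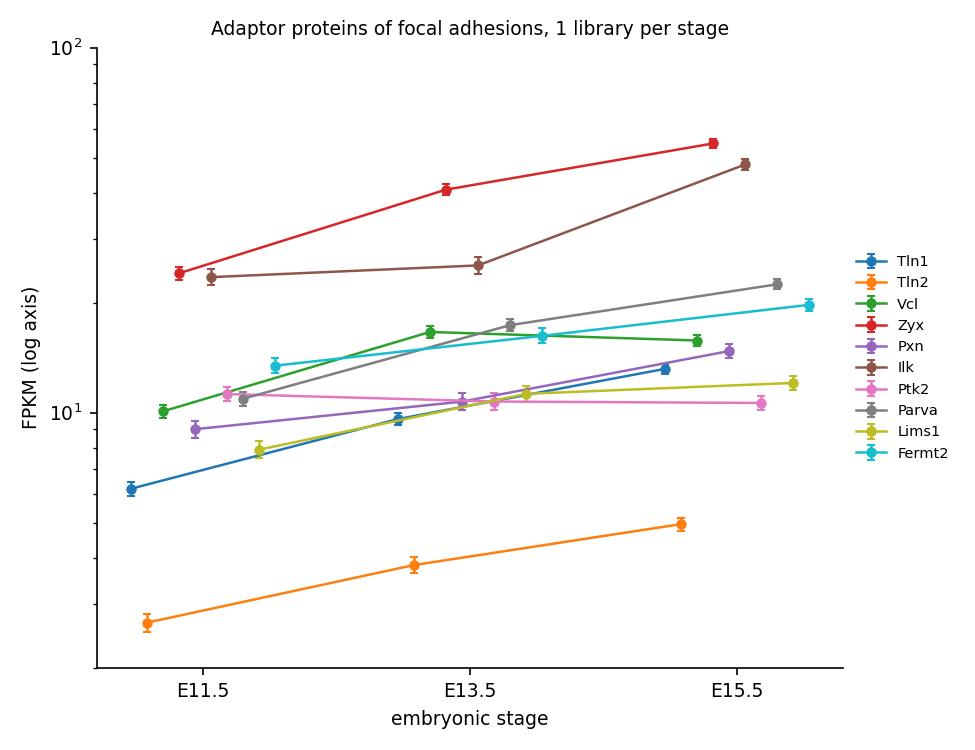
FPKM (log axis) of the 10 adaptor proteins against embryonic stage, with 1 library per stage, points offset sideways, lines joining the points of a gene and bars showing approximate 95% counting intervals. Zyx and Ilk are highest at E15.5, at 54.7 and 47.9 FPKM, Ptk2 is level at 10.6 to 11.2 FPKM, and Tln2 is lowest.

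Members differed in which interval held their larger difference. Itga11, Itga5, Itgb1, Zyx, Itga4, Itga9, Itga8 and Vcl had the larger log2 difference from E11.5 to E13.5. Itga6, Ilk and Itgav had it from E13.5 to E15.5, with 0.10 or less in the first interval. For Ilk this holds for the sum of its transcripts: NM_010562 alone had log2 differences of 0.94 and 1.02. Itgb8, Itga8, Vcl, Itga9 and Ptk2 were below 0 in the second interval, at -0.43, -0.11, -0.07, -0.06 and -0.01. Among these, the counting interval of the FPKM ratio lay wholly below 1 for Itgb8 and Vcl. Over the other settings tried, the difference lay between -0.33 and -0.11 for Itga8 and between -0.27 and -0.03 for Itga9. For Ptk2 it lay between -0.21 and -0.01.

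**Figure D4:**
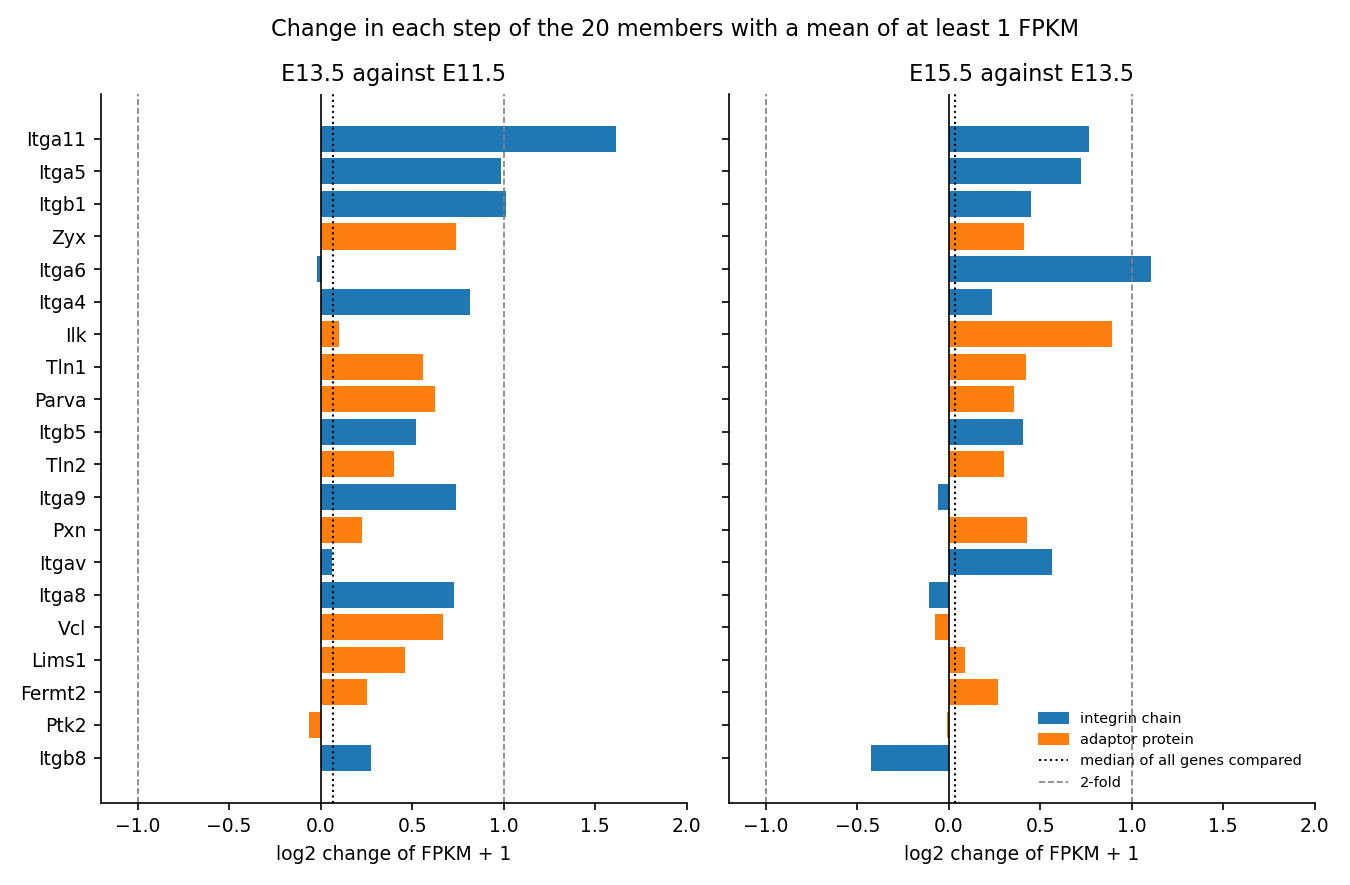
Log2 difference of FPKM + 1 of the 20 members with a mean of at least 1 FPKM, for E13.5 against E11.5 (left) and E15.5 against E13.5 (right), in the order of the difference over the whole span, with 1 library per stage and no error bars. Blue bars are integrin chains, orange bars adaptors, the dotted line is the median of all genes compared and dashed lines mark 2-fold. Itga11 reaches 1.62 on the left, Itga6 1.10 on the right, and Itgb8 lies at -0.43 on the right.

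Other focal adhesion proteins, taken as a list of 51 of which 44 could be compared, showed a wider spread than the adaptors. The list was broad and also held the caveolar protein Ptrf, the tetraspanin Cd9 and Cd47. Its counts and spread are thus not those of focal adhesion proteins alone. At least 2-fold higher were 7, 3 and 15 in the order E13.5 against E11.5, E15.5 against E13.5 and E15.5 against E11.5, against 6.00%, 3.58% and 12.6% of all genes compared. At least 2-fold lower were 0, 2 and 1, against 1.02%, 0.713% and 2.14%, so the 1 over the whole span is at the background. Their medians were 0.31, 0.22 and 0.49. Ptrf, a coat protein of caveolae, was at 0.130, 6.61 and 27.4 FPKM and had the largest log2 difference on the list over the whole span. Flnc, the muscle-type filamin that crosslinks actin, was at 0.714, 6.02 and 14.2 FPKM. Tgfb1i1, the paxillin relative Hic-5, was at 1.501, 8.45 and 15.2 FPKM, and Tenc1, the tensin that joins beta tails to actin, was at 1.55, 6.77 and 13. The tetraspanin Cd9 was at 1.24, 4.93 and 10.6 FPKM, and Cd47, which associates with alphav integrins, at 2.46, 6.46 and 12.4. Nexn, an actin-binding protein, was at 1.38, 5.05 and 6.20 FPKM. The kinase Fyn was at 3.36, 6.09 and 13.03 FPKM. Fblim1 (migfilin, 15.4, 20.1 and 6.99 FPKM) and Tes (testin, 9.65, 11.51 and 4.36 FPKM) were the 2 proteins at least 2-fold lower at E15.5 than at E13.5, and they are named after their values were seen. Some of these genes, such as Flnc, are also expressed in muscle, whose markers moved with stage as given above.

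By their medians, the listed ligands differed more between stages than the integrin chains compared. The lists were chosen with earlier results of these data known, which limits this contrast. All 11 collagen genes on the list of ligands had at least 2-fold higher values in the first interval, against 6.00% of all genes, and 10 of 11 in the second, against 3.58%, with medians of 2.30, 1.96 and 4.12 over the 3 comparisons. Col1a1, the main chain of fibrillar type I collagen, was at 16.6, 215 and 1322 FPKM and Col6a1, of the microfibrils around cells, at 1.49, 25.7 and 144. Beside them, the summed collagen-binding alpha chains were at 2.58, 8.62 and 16.4 FPKM. Of 22 ligands of RGD-binding chains and of alpha4 and alpha9, 17 were compared, and 11, 7 and 13 were 2-fold higher, against the 6.00%, 3.58% and 12.6% of all genes given above, with none 2-fold lower, against 1.02%, 0.713% and 2.14%. Postn, periostin, was at 0.737, 73.9 and 417 FPKM, Thbs4 at 0.403, 14.5 and 89.1, and Tnc, tenascin-C, the ligand of alpha9, at 1.26, 21.4 and 41.9. Fn1, fibronectin, the ligand of alpha5, was at 50.2, 111 and 188 FPKM and is named as the partner of Itga5 after its values were seen. The log2 difference over the whole span was 1.88 in Fn1 and 1.71 in Itga5.

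Laminin chains are the ligands of alpha3, alpha6 and alpha7. Of 11 chains, 5 could be compared, and all 5 were 2-fold higher over the whole span, against 12.6% of all genes (median 2.29). Lama4, a chain of vessel and mesenchymal laminins, was at 2.15, 9.27 and 26.2 FPKM, Lamb1 at 6.51, 18.9 and 35.8, and Lamc1, the common gamma chain, at 5.42, 11.1 and 32.1. Lama2, the alpha chain of muscle laminin, was at 1.45, 2.99 and 6.91 FPKM, and Lamb2 at 2.65, 4.99 and 8.96. None of the 7 ligands of leukocyte integrins had a mean of 1 FPKM.

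**Figure D5:**
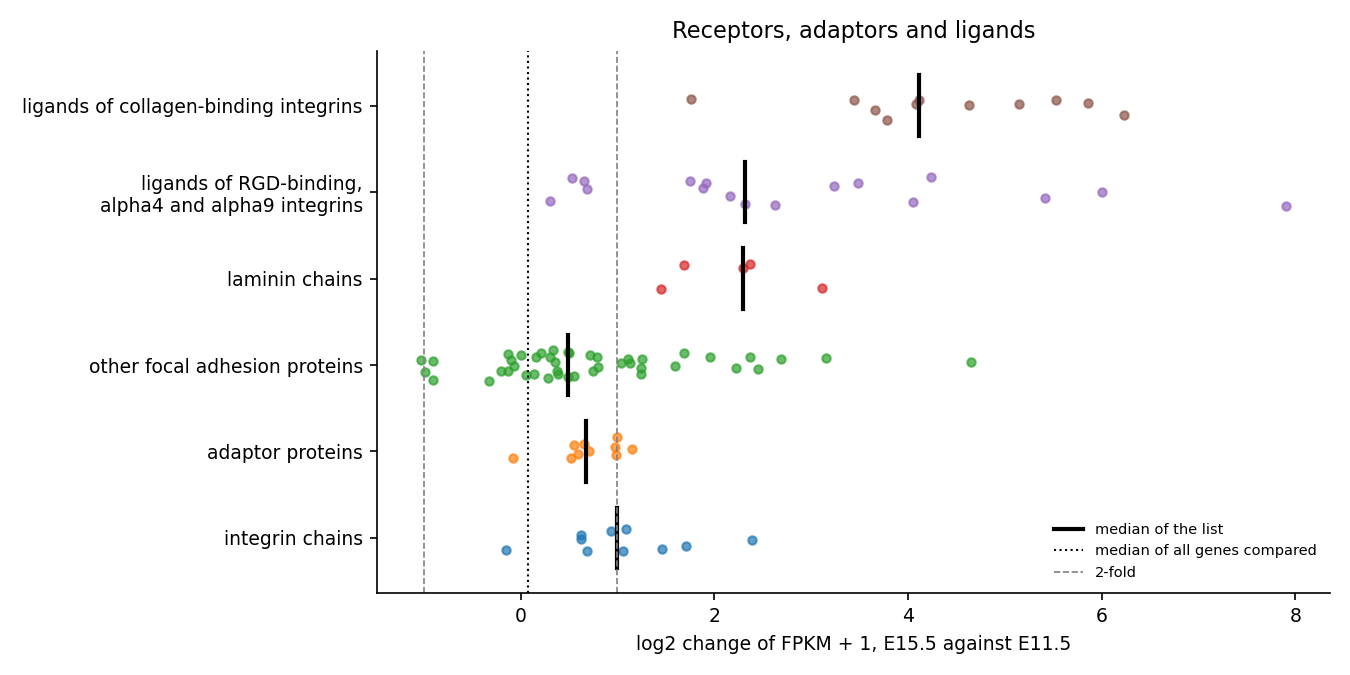
Log2 difference of FPKM + 1 between E15.5 and E11.5 (x axis) for each gene compared, in rows by list, with 1 library per stage and points offset up and down at random for legibility. Black bars are list medians, the dotted line is the median of all genes compared (0.07) and dashed lines mark 2-fold. Collagen ligands have a median of 4.12, other ligands of 2.31 and laminin chains of 2.29, against 0.99 for integrin chains, 0.68 for adaptors and 0.49 for other focal adhesion proteins. The lists were chosen with earlier results of these data known.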

How the data were processed

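The deposited values are FPKM, 1 value per RefSeq transcript and library, made by the authors, and the deposited tables also hold a coverage signal per transcript. Bowtie 0.12.7, TopHat 1.4.1 and mm9 are named per the submitters' processing notes, without role or order. For the quantifier's version, the annotation release, strand and filters, the sources used here give nothing. The intervals leave out the noise of cDNA amplification.

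FPKM was summed over the transcripts of a gene symbol. Differences are of log2(FPKM + 1), where the pseudocount of 1 understates differences of low genes. A gene was compared if it had a mean of at least 1 FPKM over the 3 libraries and its estimates were marked OK, and counts use a 2-fold limit. No test was made, since each stage has 1 library. Covered bases per read were estimated at 41 from the coverage of low transcripts, in a window of 25 to 65 bases. The 95% intervals, Poisson for levels and exact binomial (Clopper-Pearson) for ratios and a normal approximation for shares, rest on that estimate. The calculations were tested on simulated data with counting error only, drawn from genes of at least 5 FPKM. That test does not cover lower genes or the noise of cDNA amplification. Locus starts, which count from 0 in the tables, are printed counting from 1.

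The 35 members and all lists were chosen with earlier results of these data known. All members are named. From other lists, a gene may be named if its higher library reached 5 FPKM and it differed by 2-fold, up to 8 per list by size of difference, along with Scx, marker genes of other cell types and genes that overlap members. The 11 other adhesion receptors, a list added later, are all named. The names Lamb1-1 and Hbb-bt matched no symbol and were not analysed here. Alternatives were a pseudocount of 0.1, no filter, a mean of at least 5 FPKM, each library rescaled to a sum of 1000000, median-of-ratios size factors and only the highest transcript of a gene. Python 3.11.15 with pandas 2.3.3, numpy 2.4.6, scipy 1.17.1 and matplotlib 3.10.9 was used.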

Additional observations from a re-analysis of the deposited data

How the results depend on the processing

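No paired analysis was possible because each stage has 1 library, and for the same reason no library could be left out. No called difference changed sign. Under other settings, 384 values of single members moved by less than their counting interval and 111 by more. The count of members 2-fold higher at E13.5 than at E11.5, 2 as reported, was 4 with a pseudocount of 0.1, 5 after rescaling to a sum of 1000000 and 1 with size factors. Between E13.5 and E15.5 the count of 1 became 0 with a mean of at least 5 FPKM, 4 after rescaling to a sum of 1000000, 2 with only the highest transcript and 0 after rescaling to the mean of the 3 sums, a setting chosen after seeing the data. Over the whole span the count of 6 became 10 with a pseudocount of 0.1, 9 after rescaling to a sum of 1000000, 4 with a mean of at least 5 FPKM, 7 with only the highest transcript and 3 after rescaling to the mean of the sums. The members' median was 0.23 without a filter in the first interval, where all genes had 0.00. In the second it was 0.24 without a filter, 0.24 after rescaling to a sum of 1000000 and 0.19 after rescaling to the mean of the sums. Over the span it was 0.95 with a pseudocount of 0.1, 0.62 without a filter, 0.93 with the stricter minimum of 5 FPKM and 0.67 after rescaling to the mean of the sums. Of all genes past 2-fold between E13.5 and E15.5, 83.4% were higher as reported, 67.1% after rescaling to the mean of the sums and 58.3% after rescaling to a sum of 1000000, where the median of all genes was -0.15. Between E11.5 and E15.5 the share was 85.5%, 71.7% after rescaling to a sum of 1000000. With only the highest transcript of each gene, the RGD-binding share was 61.1%, 56.4% and 53.8%, that of alpha4 and alpha9 17.3%, 16.3% and 11.0%, the collagen-binding share 22.3% and 26.2% for the last 2 stages, and the leukocyte share 0.234% for the last. That setting leaves out reads of other transcripts by construction, and rescaling to a sum of 1000000 both shrinks the pseudocount and lets 26 members past the filter, where 20 were compared as reported and 15 passed the stricter minimum. A pseudocount of 0.1 alone left the count between E13.5 and E15.5 at 1. For the other differences the cause was not tested. Members below 1 FPKM are limited by depth: Itgb6 and Itga2b rest on few reads at E11.5.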

Other observations

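Matrix receptors outside the integrin family were also measured, in a list of 11 chosen after the values of the integrins were known, of which 10 could be compared. At least 2-fold higher on the log2(FPKM + 1) scale were 1 of 10 at E13.5 against E11.5, 3 of 10 at E15.5 against E13.5 and 6 of 10 at E15.5 against E11.5, against 6.00%, 3.58% and 12.6% of all genes compared, so that the first count is near the background. None was 2-fold lower, against 1.02%, 0.713% and 2.14% of all genes, which is near the background for 10 genes. The medians were 0.64, 0.69 and 1.44, beside 0.07, 0.04 and 0.07 over all genes compared. Cd44, a hyaluronan receptor, was at 0.331, 2.99 and 22.7 FPKM in stage order. Dag1, the laminin receptor dystroglycan, was at 12.8, 19.9 and 42.1 FPKM, above the laminin-binding alpha chains in every library. Sgcb and Sgce, sarcoglycans of the same complex, were at 2.17, 4.12 and 8.29 FPKM and at 8.39, 9.37 and 16.1, while Sspn was at 0.225, 1.13 and 2.11 and the muscle form Sgca at 0.0151, 0.178 and 0.730.

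The non-integrin collagen receptor Ddr2, a receptor kinase for fibrillar collagen, was at 15.1, 25.02 and 26.7 FPKM, above Itga11 in every library. Its relative Ddr1 was at 1.36, 2.51 and 3.60 FPKM, and Mrc2, a collagen uptake receptor, at 8.32, 10.3 and 16.8. Lrp1, an endocytic receptor, was at 11.0, 21.1 and 34.0 FPKM, and Bcam, a laminin receptor, at 0.690, 0.901 and 4.04.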
